A study of Homo sapiens with 16 samples.

Results

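The genes described here are 112 genes whose RNA was far lower after 4 h of lipoteichoic acid (LTA) than in untreated cells, in neutrophil-like HL-60 cells and at both LTA doses. LTA is a glycolipid of the cell wall of Staphylococcus aureus, sensed through TLR2. The genes were chosen by their RNA levels at 4 h: the untreated libraries had to average at least 3 CPM (a gene's count scaled to an equal library total) and the log2 ratio of LTA over untreated, computed with 0.5 CPM added to both means, had to be -2 or less at 1 and at 10 µg/ml. The rule found 116 of 10010 symbols at that level, and 4 of them (KIT, CXCR2, CD1D and LILRA1) were set aside, which left 112 of 23575 symbols in the count table. With CPM on TMM-scaled library sizes, the scaling used in the tests of 24 h, 66 of the 112 met the rule. RefSeq lists 110 of them as protein coding, LINC00426 as a long non-coding RNA and SIGLEC17P as a transcribed pseudogene. The 4 h values chose these genes, so everything given for 4 h is a description and supports nothing. Just inside the limit, the weaker of both log2 ratios was -2.0 for TPCN1 and -2.01 for NUAK2 and STX10. Just outside it, HAL stood at -1.997 with 1 µg/ml, and LDLRAD2 and ANXA2R at -1.99.

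HL-60 is a human promyelocytic leukaemia line used here undifferentiated (uHL-60) and after differentiation towards neutrophils (dHL-60). The 12 dHL-60 libraries formed 6 groups of 2, given no LTA, 1 µg/ml or 10 µg/ml for 4 or 24 h, and the 4 uHL-60 libraries formed 4 groups of 1, given no LTA or 1 µg/ml for 4 or 24 h. The sources used here do not name the differentiating agent, all libraries come from this 1 cell line, and the labels give no mutation or other treatment. The libraries held 9653374 to 20157081 gene counts, and the paired dHL-60 libraries are not described as separate cultures, so p-values measure a spread that may be technical. The uHL-60 counts stood in another order of rows than the symbols beside them and were put back in order: over the 1343 symbols that moved, their correlation with untreated dHL-60 at 24 h was 0.909 to 0.913 in the new order, against 0.254 to 0.258 as deposited. LINC00426 was the 1 gene of the 112 that moved, so its uHL-60 values rest on this step.

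When a phagocyte senses a bacterial product, signalling through TLR2 and MYD88 switches on inflammatory genes within hours. A resting programme is shut down in the same window: receptors, adhesion proteins and negative regulators of signalling are often reduced, through less transcription or through faster RNA decay, which counts of mature RNA cannot separate. Some such genes recover once the first response is over, while others stay low.

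As a check on the labelled cell type, the integrin subunit ITGAM averaged 131 CPM in untreated dHL-60 at 4 h and 1.14 CPM in the uHL-60 library. A fixed list of 11 neutrophil markers summed to 1815 to 1955 CPM in untreated dHL-60 at 24 h and to 6128 to 7253 CPM at 4 h, against 259.6 CPM at 24 h and 227 CPM at 4 h in untreated uHL-60. MPO, the granule enzyme of promyelocytes, was still at 18022 CPM in untreated dHL-60 at 24 h and at 8746 CPM at 4 h, against 23527 and 22362 CPM in uHL-60. The other promyelocyte markers went both ways. At 24 h untreated dHL-60 had 1806 CPM of ELANE, against 824 CPM in uHL-60. AZU1 had 595 against 254 CPM, CTSG 295 against 196 CPM and MYB 285 against 268 CPM. PRTN3, at 1118 against 2218 CPM, and CEBPE, at 135 against 166 CPM, were lower in dHL-60. At 4 h ELANE and AZU1 were again higher in dHL-60, while CTSG, PRTN3 and MYB were lower. Of 10 macrophage markers, 8 averaged under 1 CPM in untreated dHL-60 at each time, and CSF1R, itself among the 112 genes, was not. The list of 11 lymphocyte markers, which holds the gene CD2 of the 112, summed to at most 9.32 CPM in untreated dHL-60. In bulk RNA, fewer cells of a type and less RNA per cell cannot be told apart.

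At 4 h the 112 genes together took up 0.543 and 0.545% of all counts in the untreated libraries, 0.0988 and 0.105% with 1 µg/ml LTA and 0.0901 and 0.0989% with 10 µg/ml. Their median level was 24.0 CPM in untreated cells (range 3.36 to 485.8), 3.52 CPM with 1 µg/ml and 3.30 CPM with 10 µg/ml. The median log2 ratio was -2.37 with 1 µg/ml, down to -4.15, and -2.47 with 10 µg/ml, down to -4.21. The higher dose went little further than the lower one: the log2 ratio at 10 µg/ml minus that at 1 µg/ml had a median of -0.073 and ran from -0.68 to 0.54. Marker sums differed between the 4 h groups too. The macrophage list summed to 148 to 161 CPM untreated, 456 to 533 CPM with 1 µg/ml and 392.4 to 472.5 CPM with 10 µg/ml, with 8 of its 10 markers under 1 CPM on average and MSR1 at 0 in every 4 h library. The lymphocyte list summed to 7.46 to 9.32 CPM untreated, 47.5 to 50.4 CPM with 1 µg/ml and 54.9 to 56.5 CPM with 10 µg/ml, with 9 of its 11 markers under 1 CPM and NCAM1 at 0 throughout. The promyelocyte list summed to 10071 to 12035 CPM untreated, 7617 to 7814 CPM with 1 µg/ml and 6534 to 7180 CPM with 10 µg/ml, and the neutrophil list to 6128 to 7253, 6701 to 6777 and 6507 to 6818 CPM. Their part in the 4 h levels was not tested.

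**Figure D1:**
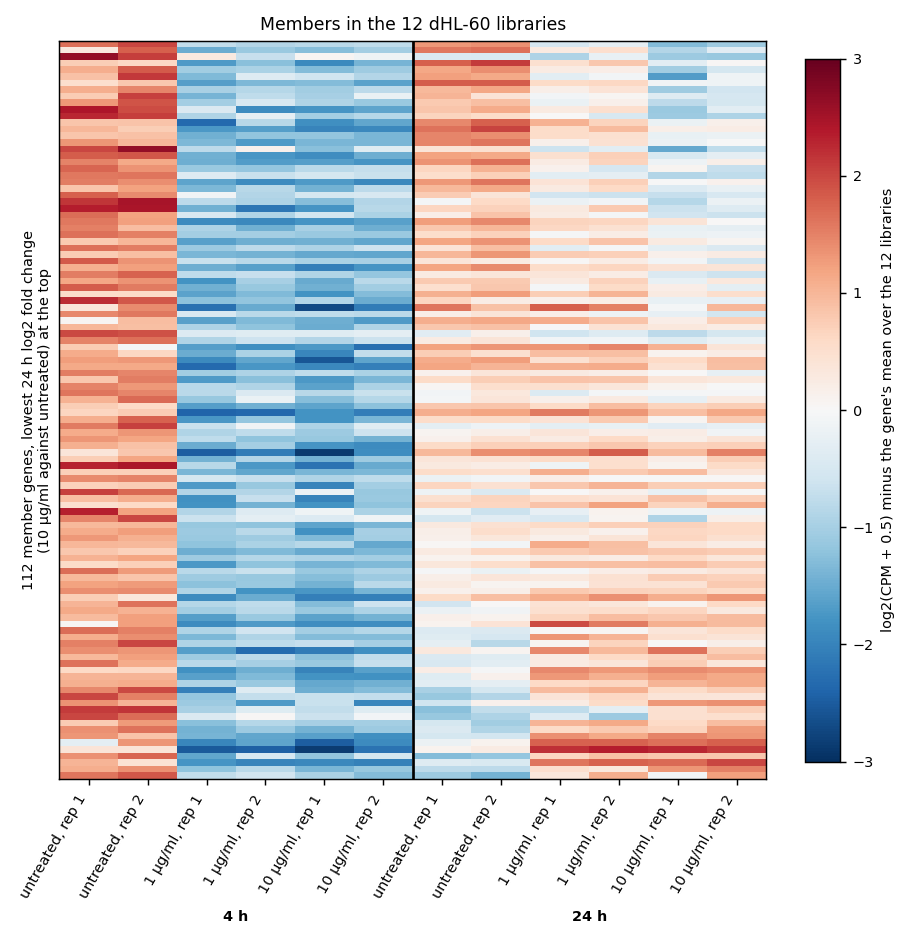
Each row is 1 of the 112 genes and each column 1 of the 12 dHL-60 libraries (4 h left of the black line, 24 h right of it, and at each time untreated, 1 and 10 µg/ml LTA). Colour is log2(CPM + 0.5) minus the gene's mean over the libraries, and rows run from the lowest to the highest 24 h log2 fold change with 10 µg/ml. The 4 libraries with LTA at 4 h are blue in nearly all rows, which follows from the rule, while at 24 h the rows at the top are lower and those at the bottom higher with LTA than without.

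The 8 genes with the lowest mean log2 ratio at 4 h came from unrelated families. COL9A3, a chain of collagen IX, had 20.2 and 22.7 CPM in untreated cells, 1.86 and 0.770 CPM with 1 µg/ml LTA and 0.407 and 0.968 CPM with 10 µg/ml. The sialic acid-binding lectin SIGLEC15, known from macrophages and osteoclasts, had 23.6 and 25.2 CPM untreated, 1.24 and 0.560 CPM with 1 µg/ml and 0.894 and 2.18 CPM with 10 µg/ml. For the anion exchanger SLC4A3 the values were 19.0 and 13.6 CPM untreated, 2.18 and 0.490 CPM with 1 µg/ml and 0.569 and 0.726 CPM with 10 µg/ml. In each of these genes all 4 libraries with LTA lay below both untreated ones, as they did for the free fatty acid receptor FFAR4 at 35.3 and 36.2 CPM untreated, 3.21 and 2.52 CPM with 1 µg/ml and 2.28 and 3.14 CPM with 10 µg/ml. The other 4 were YPEL4 and PRR15, genes of little known function, SPNS2, which exports the lipid signal sphingosine-1-phosphate, and CCR3, the receptor for eotaxins. SPNS2 had 40.3 and 37.1 CPM untreated, 4.25 and 3.36 CPM with 1 µg/ml and 3.90 and 3.23 CPM with 10 µg/ml. CCR3 had 34.2 and 26.8 CPM untreated, 2.69 and 2.80 CPM with 1 µg/ml and 3.58 and 2.18 CPM with 10 µg/ml.

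The 5 most abundant of the 112 genes were C11orf21, JAML, SELPLG, HSH2D and RGS14. C11orf21, an open reading frame of little known function, averaged 486 CPM in untreated cells at 4 h and 112 and 106 CPM with 1 and 10 µg/ml. JAML, a junctional adhesion molecule of leukocytes, averaged 359, 75.7 and 66.8 CPM in the same order of dose, and SELPLG, the ligand of P-selectin on which leukocytes roll, 340, 76.8 and 74.5 CPM. The adaptor HSH2D averaged 293, 45.3 and 49.8 CPM, and RGS14, which speeds the shut-off of G proteins, 285, 63.8 and 51.4 CPM.

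Sorted by role, the median log2 ratio at 4 h with 1 µg/ml ran from -3.0 for the 4 chemokine and other G protein-coupled receptors and -2.88 for the 7 brakes and adaptors of immune signalling to -2.13 for the 9 kinases, phosphatases and phosphoinositide proteins. With 10 µg/ml the same 3 groups stood at -3.15, -3.03 and -2.23. The brakes and adaptors include SIGIRR, a decoy-like member of the interleukin-1 receptor family that restrains TLR signalling, PIK3IP1, an inhibitor of PI3 kinase, and TRIB2, a pseudokinase. They also include NLRC3, a restraining NLR protein, the adaptor HSH2D, and DPEP2, a dipeptidase that cleaves leukotriene D4. SIGIRR had 107 and 83.1 CPM untreated, 13.4 and 11.5 CPM with 1 µg/ml and 11.7 and 10.7 CPM with 10 µg/ml. PIK3IP1 had 30.6 and 31.6 CPM untreated, 3.0 and 3.99 CPM with 1 µg/ml and 1.71 and 3.87 CPM with 10 µg/ml.

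The promoters of 84 of the 112 genes were matched in RefSeq (GRCh38.p14, 250 bases before to 50 after the annotated start). SIGLEC15 is shown because it was among the lowest genes at 4 h, and TGFBI and ASIC1 because they went opposite ways at 24 h, as described below. Capitals mark matches, on either strand, of the GC box core GGGCGG, the ETS-like GAGGAA and the KLF-like GGGTGG, and adjoining matches run together. The stretches are chr18:45825425-45825724, chr5:136028738-136029037 and chr12:50057920-50058219, each on the plus strand.
SIGLEC15: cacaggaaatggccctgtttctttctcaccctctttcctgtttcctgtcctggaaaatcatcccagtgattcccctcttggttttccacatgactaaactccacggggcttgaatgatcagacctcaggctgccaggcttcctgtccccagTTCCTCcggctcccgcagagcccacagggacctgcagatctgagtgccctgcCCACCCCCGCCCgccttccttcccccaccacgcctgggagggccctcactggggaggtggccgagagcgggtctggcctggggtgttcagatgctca
TGFBI: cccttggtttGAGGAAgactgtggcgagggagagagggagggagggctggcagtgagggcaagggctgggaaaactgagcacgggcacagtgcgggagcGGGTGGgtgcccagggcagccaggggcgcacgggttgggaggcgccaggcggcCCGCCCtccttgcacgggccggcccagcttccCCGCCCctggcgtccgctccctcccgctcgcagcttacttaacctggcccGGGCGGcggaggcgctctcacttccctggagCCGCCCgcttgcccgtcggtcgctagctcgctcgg
ASIC1: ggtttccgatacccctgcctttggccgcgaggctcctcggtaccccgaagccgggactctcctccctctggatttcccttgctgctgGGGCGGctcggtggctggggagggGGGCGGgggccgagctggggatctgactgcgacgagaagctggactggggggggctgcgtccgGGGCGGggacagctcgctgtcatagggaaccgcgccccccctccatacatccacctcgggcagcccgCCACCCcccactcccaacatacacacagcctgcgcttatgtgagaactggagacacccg
These 3 stretches held 1, 4 and 3 matches of GGGCGG, in the order shown, and none of them held TATAAA. Over the 84 promoters 71.4% held GGGCGG, against 69.0% of the 9465 matched promoters of all genes tested, and 27.4% held GAGGAA, against 27.7%. GGGTGG was in 46.4% of the 84 promoters and 37.2% of those of all genes tested, TATAAA in 3.57 and 5.63%, the AP-1 motif TGACTCA in 4.76 and 3.11%, the CRE core TGACGT in 8.33 and 11.8% and the E-box CACGTG in 7.14 and 10.3%. The median GC content was 68.0% in the 84 promoters and 65.0% in those of all genes tested. The genes' median span was 24748 bases, against 28344 bases for 11746 genes tested. These shares are descriptions of letters in a window and say nothing about a factor that binds there.

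At 24 h the 112 genes no longer moved one way. With 1 µg/ml LTA 23 were lower than in untreated cells (20.5%, against 7.26% of all 11866 genes tested), 22 were higher (19.6%, against 13.9%) and 67 were not called. With 10 µg/ml LTA 34 were lower (30.4%, against 19.0% of all genes tested), 36 were higher (32.1%, against 23.6%) and 42 were not called. The 2 doses share their untreated libraries and so are not independent of each other. All adjusted p values are from the quasi-likelihood test of edgeR with Benjamini-Hochberg adjustment over all genes tested, with a call at an adjusted p under 0.05, and ± after a log2 fold change is its SE with 2 libraries per group. Each of the 112 genes passed the filter on low counts, which counts the libraries of both times. Among the 10010 genes of at least 3 CPM in untreated cells at 4 h, the shares lower and higher were 7.96 and 14.2% with 1 µg/ml and 20.5 and 24.3% with 10 µg/ml. The median log2 fold change of the 112 genes was 0.092 with 1 µg/ml and 0.052 with 10 µg/ml, against 0.014 and -0.0057 for all genes tested.

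Both libraries with 1 µg/ml lay below both untreated ones for 39 of the 112 genes (34.8%, against 32.1% of all genes tested) and above both for 43 (38.4%, against 31.1%). The same held with 10 µg/ml for 52 genes below (46.4%, against 44.9%) and 42 above (37.5%, against 29.5%). These orders are of CPM on library totals alone. That scaling put the median log2 fold change of all genes at -0.0079 with 1 µg/ml and -0.17 with 10 µg/ml. Single libraries weighed on the counts. With 1 µg/ml, 9 genes were lower without treated replicate 1, 14 without treated replicate 2 and 13 without untreated replicate 2. The calls lost without at least 1 library were those of ARHGEF17, ASIC1, CLDN9, DBP, DNASE2, DPEP2, FFAR4, HVCN1, KCNK17, KLHL31, KY, SIGIRR, SIGLEC6, SPNS2, TFAP4, THRA, TNNI2, TPCN1 and YPEL4, at adjusted p = 0.0541 to 0.326. At the higher dose, 23 genes were higher without treated replicate 1, and the calls lost without at least 1 library included those of ANO8, B4GAT1, CHST13, CLDN9, EPHB6, EPOR, LRRC45, NUAK2, PITPNM2, PLA2G15, PMP22, PPFIA4, RAB3D, RGS12, RGS14, SELPLG, SIGLEC15, SLC4A3, ST3GAL5, TPCN1 and YPEL4, at adjusted p = 0.0513 to 0.290. DESeq2 called 41 of the 45 genes at the lower dose and 61 of the 70 at the higher one. The losses at the lower dose were FFAR4, HVCN1, KLHL31 and KY, at adjusted p = 0.0557 to 0.135, and those at the higher dose included ANO8, B4GAT1, EPHB6, EPOR, NUAK2, PLA2G15, PMP22 and ST3GAL5, at adjusted p = 0.0538 to 0.161. In 26 of 45 calls at 1 µg/ml and 48 of 70 at 10 µg/ml the call held without any single library.

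**Figure D2:**
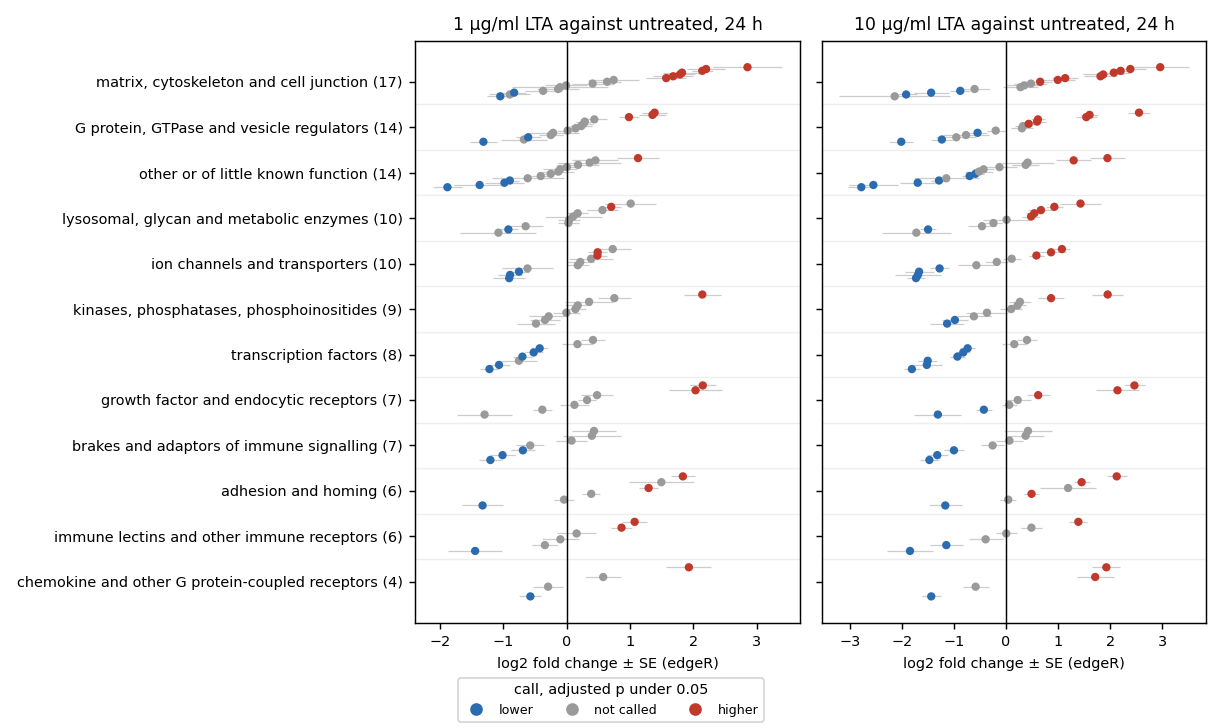
Log2 fold change ± SE of each gene at 24 h, with 1 µg/ml LTA over untreated cells on the left and 10 µg/ml over untreated on the right, in rows by role with the number of genes in parentheses. Blue points were called lower and red ones higher, and grey ones were not called. The transcription factors and the brakes and adaptors of immune signalling hold blue and grey points only. The row of matrix, cytoskeleton and cell junction genes, which has the most genes, holds more points above 1.5 than any other row.

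The untreated cells had moved too. The ratio of untreated cells at 24 h over untreated cells at 4 h had a median of 0.508 over the 112 genes, and 90 were under 1 and 53 at most 0.5. Over all 10010 symbols of at least 3 CPM the median ratio was 1.06 and 972 were at most 0.5. This ratio uses the untreated libraries of 4 h, which the rule favours where they are high, so it is a description. It had a median of 1.00 over the 23 genes lower with 1 µg/ml LTA at 24 h, 0.473 over the 67 not called and 0.356 over the 22 higher, and was under 1 for 11, 57 and 22 of them. The 22 higher genes had median levels of 21.1 CPM in untreated cells at 4 h, 5.26 CPM in untreated cells at 24 h and 13.8 CPM with 1 µg/ml at 24 h. Both this ratio and the calls use the untreated libraries of 24 h, so a link between them is built in. Median levels at 24 h were 13.3 CPM in untreated cells, 12.4 CPM with 1 µg/ml and 11.9 CPM with 10 µg/ml, and the genes' share of all counts was 0.368 and 0.399%, 0.412 and 0.425%, and 0.373 and 0.383% in the same order. Markers of maturity moved with the 24 h groups. The neutrophil list summed to 1815 to 1955 CPM in untreated cells, 8394 to 8524 CPM with 1 µg/ml and 13884 to 14617 CPM with 10 µg/ml, and 2 of its 11 markers averaged under 1 CPM in each of these groups. The 8 promyelocyte markers summed to 19458 to 25054 CPM untreated, 7161 to 10515 CPM with 1 µg/ml and 4959 to 6335 CPM with 10 µg/ml, with CD34 at or near 0. Their part in the 24 h results was not tested.

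Matrix, cytoskeleton and junction genes were the largest group and had most higher calls at 24 h. With 1 µg/ml 7 of 17 were higher and 2 lower, and with 10 µg/ml 9 were higher and 3 lower (7 higher when scaled to library totals alone). Smaller groups had like shares of higher calls with 10 µg/ml. These were 3 of 6 adhesion and homing genes, 5 of 10 lysosomal, glycan and metabolic enzymes and 6 of 14 regulators of G proteins, small GTPases and vesicle traffic. With 1 µg/ml the same groups had 2, 1 and 3 higher. Beside these counts, 13.9% of all genes tested were higher and 7.26% lower with 1 µg/ml. With 10 µg/ml the shares were 23.6 and 19.0%. TGFBI, a secreted matrix protein made by macrophages, had 25.5 and 28.2 CPM untreated, 110 and 123 CPM with 1 µg/ml and 116 and 103 CPM with 10 µg/ml. Its 4 treated libraries stood far above both untreated ones, and its log2 fold change was 2.14 ± 0.16 (adjusted p = 1.28e-06) and 2.20 ± 0.16 (adjusted p = 3.23e-07) at the lower and higher dose. MYO7A, an unconventional myosin, had 2.54 and 2.90 CPM untreated, 11.2 and 13.3 CPM with 1 µg/ml and 12.6 and 12.7 CPM with 10 µg/ml, with changes of 2.20 ± 0.30 (adjusted p = 0.000141) and 2.38 ± 0.30 (adjusted p = 2.85e-05). The largest fitted rise at both doses, 2.86 ± 0.55 and 2.96 ± 0.55 (adjusted p = 0.00231 and 0.000800), was that of VWA1, a matrix protein with a von Willebrand factor A domain, with low levels of 0.544 and 0.331 CPM untreated, 2.30 and 4.22 CPM with 1 µg/ml and 1.60 and 4.73 CPM with 10 µg/ml. KRT80, VASH1, PMP22 and PLEKHA7 also rose at both doses, by 0.99 to 2.07. VASH1 is uncertain because over 10% of its exon bases overlap other genes.

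The group's lower members were STARD9, a mitotic kinesin, and TNNI2, a troponin subunit, at both doses, and STMN3, a stathmin that destabilises microtubules, with 10 µg/ml. STARD9 had 32.7 and 38.6 CPM untreated, 17.4 and 16.6 CPM with 1 µg/ml and 6.81 and 9.95 CPM with 10 µg/ml, and fell by 1.05 ± 0.21 (adjusted p = 0.00268) and by 1.92 ± 0.22 (adjusted p = 1.33e-05). COL9A3, the lowest gene at 4 h, had at 24 h 4.66 and 4.39 CPM untreated, 3.36 and 5.46 CPM with 1 µg/ml and 4.04 and 5.73 CPM with 10 µg/ml. Its fold changes of -0.0067 ± 0.33 and 0.28 ± 0.33 were not called.

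Surface receptors of phagocytes were among the genes higher at 24 h. CSF1R, the receptor for the macrophage growth factors CSF1 and IL-34, had 26.5 and 25.4 CPM untreated at 24 h, 106 and 121 CPM with 1 µg/ml and 115 and 141 CPM with 10 µg/ml. At 4 h it had 71.4 and 47.6 CPM untreated, 9.84 and 8.47 CPM with 1 µg/ml and 8.78 and 8.14 CPM with 10 µg/ml. The treated and untreated libraries thus stood in opposite order at the 2 times, and the 24 h change was 2.15 ± 0.21 (adjusted p = 9.33e-06) and 2.46 ± 0.21 (adjusted p = 1.04e-06). The 10 macrophage markers, CSF1R included, summed to 55.3 to 58.3 CPM untreated at 24 h, 251 to 265 CPM with 1 µg/ml and 320.3 to 379 CPM with 10 µg/ml, with 8, 7 and 7 of them under 1 CPM on average and MSR1 at 0 in both untreated libraries and in both with 10 µg/ml. Their part in this result was not tested. PECAM1, an adhesion protein with inhibitory signalling motifs, had 84.5 and 83.3 CPM untreated at 24 h, 319 and 271 CPM with 1 µg/ml and 345 and 307 CPM with 10 µg/ml, and rose by 1.84 ± 0.19 (adjusted p = 1.83e-05) and 2.12 ± 0.20 (adjusted p = 2.09e-06). JAML had 276 and 229 CPM untreated at 24 h, 643 and 577 CPM with 1 µg/ml and 633 and 596 CPM with 10 µg/ml, and rose by 1.30 ± 0.15 and 1.45 ± 0.15 at the lower and higher dose (adjusted p = 4.88e-05 and 7.28e-06).

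Of the 6 adhesion and homing genes, 2 rose with 1 µg/ml and 3 with 10 µg/ml, against 13.9 and 23.6% of all genes tested. The third was SELPLG at 0.49 ± 0.15 (adjusted p = 0.0164, and not called when scaled to library totals alone). The tight junction protein CLDN9 fell at both doses, by 1.33 ± 0.32 and by 1.17 ± 0.32 (adjusted p = 0.00882 and 0.00930). FUT7, a fucosyltransferase that makes selectin ligands, had 94.7 and 96.3 CPM untreated at 24 h, 80.5 and 102 CPM with 1 µg/ml and 85.8 and 89.7 CPM with 10 µg/ml, and was not called. It is uncertain because its exons overlap other genes. CCR2, the receptor for the monocyte chemoattractant CCL2, had 2.72 and 3.89 CPM untreated, 11.8 and 12.7 CPM with 1 µg/ml and 9.0 and 10.1 CPM with 10 µg/ml, a rise of 1.93 ± 0.35 (adjusted p = 0.00159) and 1.71 ± 0.36 (adjusted p = 0.00182). CCR3 stayed uncalled at -0.29 ± 0.24 and -0.58 ± 0.25, with 11.3 and 8.28 CPM untreated, 7.71 and 8.08 CPM with 1 µg/ml and 5.89 and 5.80 CPM with 10 µg/ml.

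**Figure D3:**
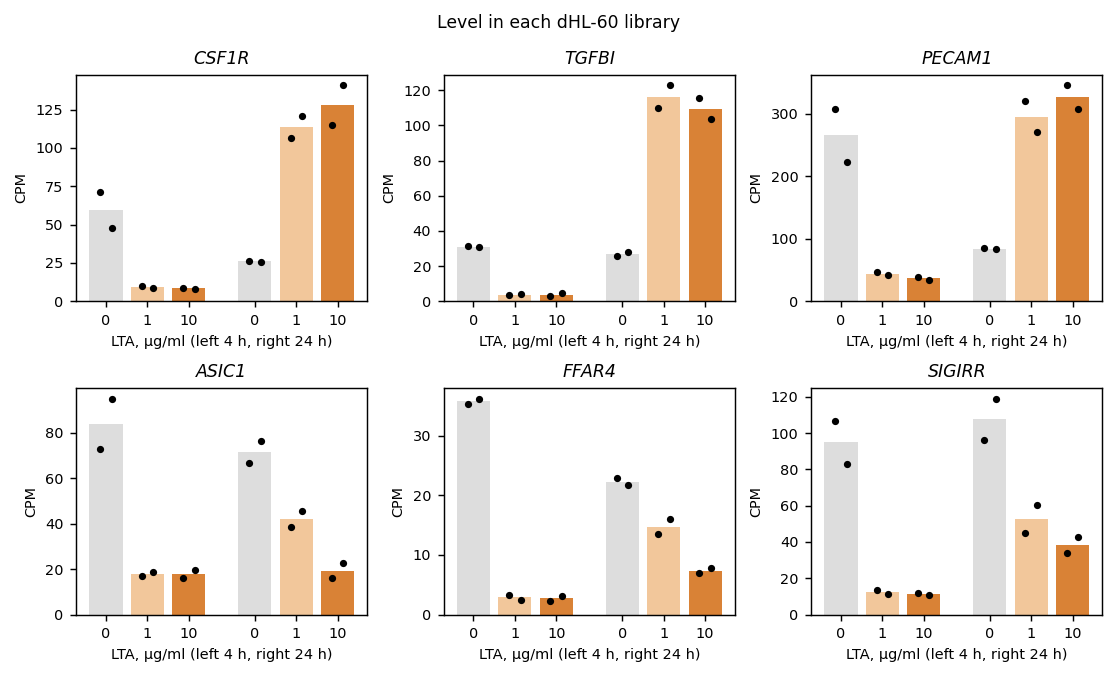
CPM of 6 of the 112 genes in each dHL-60 library (points) with the group mean (bars), at 0, 1 and 10 µg/ml LTA, 4 h on the left of each panel and 24 h on the right. At 4 h the treated points are low in every panel, by the rule. At 24 h CSF1R, TGFBI and PECAM1 are above the untreated points and ASIC1, FFAR4 and SIGIRR below them.

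Among the 7 growth factor, endocytic and morphogen receptors, DAB2, an endocytic adaptor, rose with CSF1R at both doses (2.04 ± 0.41 and 2.14 ± 0.42, adjusted p = 0.00332 and 0.00110). With 10 µg/ml the erythropoietin receptor EPOR was higher, at 0.62 ± 0.22 (adjusted p = 0.0391), and EPHB6, a kinase-dead ephrin receptor, was lower, at -0.43 ± 0.16 (adjusted p = 0.0402). Neither was called with DESeq2 (adjusted p = 0.112 and 0.0933), EPOR was not called under upper-quartile scaling or library totals (adjusted p = 0.0717 and 0.133), and EPHB6 was not called with no low-count filter (adjusted p = 0.0890). LRP1, the large endocytic receptor, had 64.9 and 86.2 CPM untreated, 90.8 and 117 CPM with 1 µg/ml and 63.3 and 94.3 CPM with 10 µg/ml, and was not called at either dose. Of the 6 immune lectins and other immune receptors, CD300C, an activating receptor, rose at both doses (0.87 ± 0.17 and 1.39 ± 0.17, adjusted p = 0.00268 and 2.78e-05). The scavenger receptor COLEC12 rose by 1.08 ± 0.20 with 1 µg/ml (adjusted p = 0.00177) and stood at 0.49 ± 0.20 with 10 µg/ml, which was not called.

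SIGLEC15 and SIGLEC6 had no higher call at 24 h. SIGLEC15 had 6.96 and 7.21 CPM untreated at 24 h, 5.33 and 7.64 CPM with 1 µg/ml and 2.52 and 3.15 CPM with 10 µg/ml, and fell by 1.15 ± 0.32 at the higher dose (adjusted p = 0.0103). With 1 µg/ml its libraries lay on both sides of the untreated ones and its change of -0.096 ± 0.29 was not called. SIGLEC6, a lectin best known from trophoblasts and mast cells, had 14 and 13 CPM untreated, 4.43 and 5.31 CPM with 1 µg/ml and 1.43 and 5.16 CPM with 10 µg/ml, and fell by 1.44 ± 0.43 and by 1.84 ± 0.45 (adjusted p = 0.0289 and 0.00493). SIGLEC6 is uncertain because its exons overlap a gene on the other strand.

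Transcription factors had lower calls and no higher ones at 24 h. Of 8, 5 fell and 0 rose with 1 µg/ml, and 6 fell and 0 rose with 10 µg/ml, the same counts under each of the 4 scalings run. Among all genes tested 7.26% fell and 13.9% rose with 1 µg/ml, and 19.0% fell and 23.6% rose with 10 µg/ml. A single library decided much of the count at the lower dose: without treated replicate 1, DBP, TFAP4 and THRA lost their calls with 1 µg/ml (edgeR adjusted p = 0.0551, 0.219 and 0.156) and 2 of the 5 held. THRA also lost its call with no low-count filter (adjusted p = 0.0583). ZNF74, a KRAB zinc finger protein, had 50.8 and 50.4 CPM untreated, 21.1 and 21.7 CPM with 1 µg/ml and 13 and 12.7 CPM with 10 µg/ml. Each dose lay clear of the one below it, though 10 against 1 µg/ml was not called, and ZNF74 fell by 1.22 ± 0.15 (adjusted p = 7.50e-05) and by 1.81 ± 0.16 (adjusted p = 1.19e-06). SOX12 had 91.5 and 122 CPM untreated, 43.2 and 56.8 CPM with 1 µg/ml and 32.9 and 34.1 CPM with 10 µg/ml, and fell by 1.07 ± 0.18 and by 1.5 ± 0.18 (adjusted p = 0.000875 and 2.47e-05). TFAP4, a basic helix-loop-helix factor activated by MYC, the thyroid hormone receptor THRA and the circadian factor DBP also fell at both doses, by 0.42 to 0.93, and the nuclear receptor NR2F2 fell by 1.52 ± 0.29 with 10 µg/ml (adjusted p = 0.000969). DBP is uncertain because of an overlap on the other strand. SNAI3 and ZNF395 were not called, at 0.17 ± 0.24 and 0.42 ± 0.19 with 1 µg/ml and 0.16 ± 0.24 and 0.40 ± 0.19 with 10 µg/ml. ZNF395 is uncertain because 34.9% of its exon bases overlap another gene on the same strand.

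Brakes and adaptors of immune signalling likewise included lower genes and no higher ones. SIGIRR, HSH2D and DPEP2 fell at both doses, 3 of 7 genes, against 7.26 and 19.0% of all genes tested. The other 4 were not called, and both counts again held under each of the 4 scalings. Of the 3 that fell, SIGIRR restrains signalling, while HSH2D is an adaptor and DPEP2 a dipeptidase. The genes not called include NLRC3, PIK3IP1 and TRIB2, so the falls do not extend to the brakes as a class. Without treated replicate 1, SIGIRR and DPEP2 lost their calls with 1 µg/ml (edgeR adjusted p = 0.0548 and 0.105) and 1 of the 3 held. DPEP2 lost its call also without treated replicate 2 and without untreated replicate 2 (adjusted p = 0.0867 and 0.110). SIGIRR had 96.2 and 119 CPM untreated at 24 h, 44.8 and 60.2 CPM with 1 µg/ml and 34.1 and 42.8 CPM with 10 µg/ml, and fell by 1.01 ± 0.20 (adjusted p = 0.00286) and by 1.32 ± 0.20 (adjusted p = 0.000184). HSH2D had 356 and 395 CPM untreated, 144 and 178 CPM with 1 µg/ml and 114 and 128 CPM with 10 µg/ml, and fell by 1.20 ± 0.18 (adjusted p = 0.000380) and by 1.47 ± 0.18 (adjusted p = 3.07e-05). PIK3IP1, at -0.57 ± 0.22 and -0.26 ± 0.22, and TRIB2, at 0.080 ± 0.25 and 0.064 ± 0.25, were not called.

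Ion channels and transporters split. ASIC1, an acid-sensing sodium channel, KCNK17, a leak potassium channel, and SPNS2 fell at both doses, and SLC4A3 fell with 10 µg/ml, while the voltage-gated proton channel HVCN1 and the lysosomal channel TPCN1 rose at both doses. With 1 µg/ml neither rise was called under upper-quartile scaling. ASIC1 had 67.0 and 76.6 CPM untreated, 38.4 and 45.5 CPM with 1 µg/ml and 16.1 and 22.6 CPM with 10 µg/ml. HVCN1, which carries out protons during the oxidative burst, had 19.8 and 19.5 CPM untreated, 26.9 and 27.5 CPM with 1 µg/ml and 34.4 and 39.4 CPM with 10 µg/ml. It rose by 0.49 ± 0.15 (adjusted p = 0.0351) and 1.07 ± 0.15 (adjusted p = 9.38e-05), and is uncertain because of an overlap on the other strand. SPNS2 fell by 0.89 ± 0.18 and by 1.28 ± 0.19 (adjusted p = 0.00355 and 0.000122).

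Of the 14 regulators of G proteins, small GTPases and vesicle traffic, 3 rose and 2 fell with 1 µg/ml and 6 rose and 3 fell with 10 µg/ml. The shares of all genes tested were 13.9% higher and 7.26% lower with 1 µg/ml, and 23.6 and 19.0% with 10 µg/ml. RGS3, which ends G protein signalling, had 2.84 and 2.82 CPM untreated, 7.62 and 6.70 CPM with 1 µg/ml and 13.8 and 15.9 CPM with 10 µg/ml, a rise of 1.36 ± 0.22 (adjusted p = 0.000573) and 2.55 ± 0.21 (adjusted p = 7.76e-07). IQSEC2 and ADAP2, which regulate ARF GTPases, rose at both doses by 0.99 to 1.60, and ADAP2 is uncertain because of an overlap on the other strand. The G protein gamma subunit GNG7 had 23.9 and 29.7 CPM untreated, 9.34 and 11.8 CPM with 1 µg/ml and 5.13 and 6.66 CPM with 10 µg/ml, and fell by 1.31 ± 0.22 and by 2.01 ± 0.23 (adjusted p = 0.000698 and 1.25e-05).

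Of the 9 kinases, phosphatases and phosphoinositide proteins, 1 rose and 0 fell with 1 µg/ml and 2 rose and 2 fell with 10 µg/ml. Across all genes tested 13.9% rose and 7.26% fell with 1 µg/ml, and 23.6% rose and 19.0% fell with 10 µg/ml. PALD1, a phosphatase domain protein, and PITPNM2, a phosphatidylinositol transfer protein, fell by 0.98 ± 0.25 and by 1.13 ± 0.32 at the higher dose (adjusted p = 0.00575 and 0.0120). The kinase NUAK2 rose by 0.86 ± 0.26 there (adjusted p = 0.0154). MAP3K6, a stress kinase kinase, rose at both doses, by 2.14 ± 0.29 and 1.95 ± 0.30 (adjusted p = 0.000153 and 0.000160), with 1.88 and 1.16 CPM untreated, 6.48 and 7.06 CPM with 1 µg/ml and 4.71 and 6.02 CPM with 10 µg/ml. Of the 10 lysosomal, glycan and metabolic enzymes, 1 rose and 1 fell with 1 µg/ml and 5 rose and 1 fell with 10 µg/ml (2 rose and 2 fell when scaled to library totals alone). DNASE2, the lysosomal nuclease that degrades engulfed DNA, rose at both doses, by 0.71 ± 0.16 and 0.93 ± 0.16 (adjusted p = 0.00659 and 0.000459), and NT5DC3, a protein with a nucleotidase domain, fell by 0.92 ± 0.15 and by 1.5 ± 0.15 (adjusted p = 0.000574 and 4.83e-06). Among 14 genes of other or little known function, the long non-coding RNA LINC00426 had the lowest fold change of all 112 at both doses. It had 8.71 and 9.19 CPM untreated, 2.13 and 2.62 CPM with 1 µg/ml and 1.01 and 1.29 CPM with 10 µg/ml, and fell by 1.88 ± 0.23 (adjusted p = 6.83e-05) and by 2.78 ± 0.26 (adjusted p = 2.23e-06). KLHL31 fell by 1.37 ± 0.41 and by 2.55 ± 0.47 (adjusted p = 0.0286 and 0.000709, with no DESeq2 call at the lower dose), C11orf21 fell by 0.89 ± 0.15 and by 1.29 ± 0.15 (adjusted p = 0.000683 and 1.49e-05), and YPEL4 rose by 1.13 ± 0.34 and 1.30 ± 0.34 (adjusted p = 0.0284 and 0.00723).

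Set directly against each other at 24 h, 10 and 1 µg/ml LTA gave 4 of the 112 genes lower at the higher dose (3.57%, against 0.792% of all genes tested) and 5 higher (4.46%, against 3.03%). Lower with 10 than with 1 µg/ml were ASIC1 at -0.98 ± 0.17 (adjusted p = 0.00721), STARD9 at -0.87 ± 0.22 (adjusted p = 0.0449), FFAR4 at -0.87 ± 0.19 (adjusted p = 0.0220) and NHSL2, a gene of little known function, at -0.70 ± 0.14 (adjusted p = 0.0161). FFAR4 had 6.90 and 7.81 CPM with 10 µg/ml, against 13.5 and 16 CPM with 1 µg/ml, and 22.9 and 21.7 CPM in untreated cells. Higher with 10 than with 1 µg/ml were KIAA0513 at 1.49 ± 0.32 (adjusted p = 0.0207), the neurotensin receptor NTSR1 at 1.35 ± 0.26 (adjusted p = 0.0119), RGS3 at 1.19 ± 0.19 (adjusted p = 0.00450), ADAP2 at 0.62 ± 0.16 (adjusted p = 0.0450) and HVCN1 at 0.58 ± 0.15 (adjusted p = 0.0493). NTSR1 had 8.83 and 10.5 CPM with 10 µg/ml, against 3.44 and 4.88 CPM with 1 µg/ml. For 53 of the 112 genes both libraries with 10 µg/ml lay below both with 1 µg/ml (47.3%, against 43.4% of all genes tested), and for 14 above (12.5%, against 18.3%). These orders use CPM on library totals alone, which put the median log2 fold change of all genes at -0.14, against 0.0017 with TMM. The 9 calls between doses rest on single libraries. Of the 9, 3 held without 1 µg/ml replicate 1, 0 without 1 µg/ml replicate 2, 1 without 10 µg/ml replicate 1 and 6 without 10 µg/ml replicate 2, and scaled to library totals alone 8 genes were lower and 3 higher.

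Most of these genes were higher in neutrophil-like than in undifferentiated cells before any LTA. Untreated dHL-60 at 24 h had 70 of the 112 genes higher than untreated uHL-60 (62.5%, against 24.5% of all 12603 genes tested), 4 lower (3.57%, against 23.0%) and 38 not called. Since the rule asks for at least 3 CPM in untreated dHL-60 at 4 h, the closer background is that of the 10010 genes at that level, of which 26.9% were higher and 22.3% lower. In both untreated uHL-60 libraries, 34 of the 112 genes were under 1 CPM and 35 were at least 5 CPM. The test takes the single uHL-60 library to vary as the dHL-60 pairs do, and a batch shared by the uHL-60 libraries cannot be told apart from cell state.

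COLEC12 had 17.4 and 16.2 CPM in untreated dHL-60 at 24 h and 0 counts in each of the 4 uHL-60 libraries, and was at least 106-fold higher against a floor of 3 counts in the untreated 24 h library. The sulfotransferase HS3ST1 was likewise at least 9.20-fold higher, with 0 uHL-60 counts. The lipid antigen-presenting protein CD1C was 149-fold higher (95% counting interval 26.5 to 5916) on 1 uHL-60 count. LRP1 had 64.9 and 86.2 CPM in dHL-60 and 0.319 CPM in uHL-60, a difference of 7.73 ± 0.58 (adjusted p = 9.43e-08), and JAML had 276 and 229 CPM in dHL-60 and 1.54 CPM in uHL-60, a difference of 7.23 ± 0.30 (adjusted p = 2.34e-10). Floors and counting intervals cover counting error only.

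The 4 genes lower in dHL-60 were NLRC3 at -2.39 ± 0.34 (adjusted p = 4.70e-05), the endosomal sorting subunit MVB12B at -1.34 ± 0.40 (adjusted p = 0.0131), CCR2 at -1.17 ± 0.42 (adjusted p = 0.0331) and ARHGAP22 at -0.73 ± 0.24 (adjusted p = 0.0198). NLRC3 had 2.72 and 2.15 CPM in dHL-60, against 12 CPM in uHL-60. At 4 h the order of CCR2 was the other way round, with 16.7 and 24.5 CPM in untreated dHL-60, against 6.15 CPM in uHL-60, and over the 6 untreated libraries with time as a term it stood at 0.11 and was not called (adjusted p = 0.883). NLRC3 and MVB12B were not called there either, at -1.07 and -0.49 (adjusted p = 0.146 and 0.374), and with DESeq2 NLRC3 was the 1 gene called lower. ARHGAP22 lost its call without either dHL-60 library (adjusted p = 0.0556 and 0.0716), CCR2 without replicate 1 (-0.92, adjusted p = 0.167) and MVB12B without replicate 2 (-1.27, adjusted p = 0.0572).

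**Figure D4:**
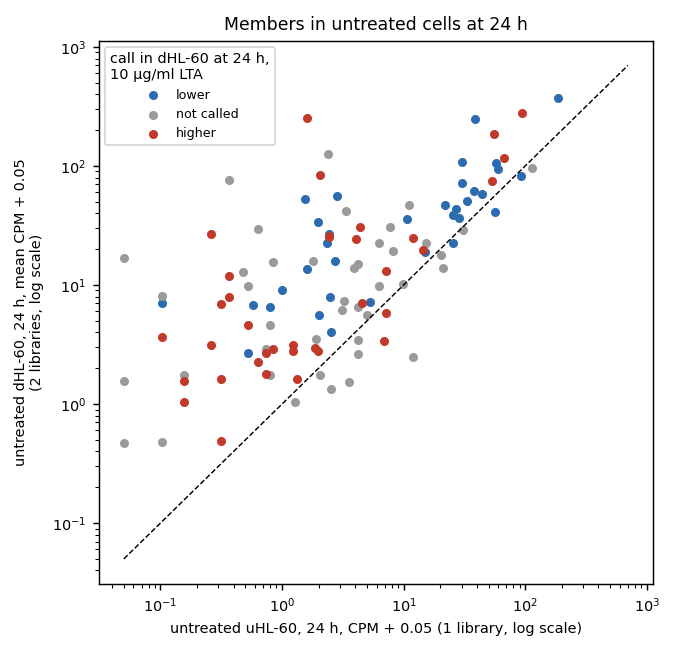
Level of each of the 112 genes in untreated dHL-60 (mean of 2 libraries, vertical) against untreated uHL-60 (1 library, horizontal) at 24 h, CPM + 0.05 on log scales, with the line of equal levels dashed. Colour gives the call in dHL-60 after 24 h with 10 µg/ml LTA. Most points lie above the line, and the blue points (lower with LTA) reach further right and further up than the red ones (higher with LTA).

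The level in untreated cells of both states differed between the genes that were lower and those that were higher at 24 h. In untreated uHL-60 at 24 h, the 23 genes lower with 1 µg/ml LTA had a median of 25.3 CPM, the 67 not called 3.09 CPM and the 22 higher 0.745 CPM. In the untreated uHL-60 library of 4 h the medians were 20.8, 2.48 and 0.819 CPM in the same order. By the calls at 10 µg/ml they were 12.8, 3.14 and 1.41 CPM at 24 h. Untreated dHL-60 showed the same order, so it is not particular to undifferentiated cells. By the calls at 1 µg/ml the dHL-60 medians were 38.7, 9.82 and 5.26 CPM at 24 h and 42.3, 22.8 and 21.1 CPM at 4 h. The calls use the untreated dHL-60 libraries of 24 h, so a link with those levels is partly built in. Examples are HSH2D at 185 CPM, ZNF74 at 33.2 CPM and ASIC1 at 30.1 CPM in uHL-60 among those lower, and PECAM1 at 2.02 CPM, TGFBI at 0.213 CPM and CSF1R at 2.39 CPM among those higher. JAML, higher with LTA, was also low in uHL-60, while TPCN1, higher with LTA, had 53.4 CPM and SIGLEC6, lower with LTA, 1.54 CPM there. Across the 112 genes the log level in uHL-60 and the 24 h change had a Pearson r of -0.362 with 1 µg/ml and -0.315 with 10 µg/ml (Spearman coefficient -0.343 and -0.308), and across all genes tested r was -0.257 and -0.276 (Spearman coefficient -0.12 and -0.161). These correlations are across genes, which are not independent replicates, and both doses share the untreated dHL-60 libraries.

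In undifferentiated cells 1 of these genes was called with LTA. For 1 µg/ml LTA against untreated uHL-60, fitted over 4 and 24 h together with a term for time, 90 of the 112 genes had enough counts for a test. Of these 0 were lower (against 0.109% of 11020 genes tested) and 1, JAML, was higher (1.11%, against 0.0998%), and the number at an unadjusted p under 0.05 was 2 of the 90 and 296 of the 11020. JAML had 3.91 CPM with LTA and 1.54 CPM without at 24 h, and 3.13 CPM with LTA and 1.59 CPM without at 4 h, a difference of 1.15 ± 0.27 (adjusted p = 0.0106). DESeq2 called 0 of the 112 genes. Over all 16 libraries JAML stood at 1.14 (adjusted p = 0.352), and 0 of the 112 genes were called lower (against 0.00793% of all genes tested) or higher (against 0.0317%). A test of the 24 h response in dHL-60 minus that in uHL-60, added after the data were seen, called 1 of the 112 genes higher (0.893%, against 1.35% of all genes tested) and 1 lower (0.893%, against 0.278%). They were CSF1R and ZNF74, whose values are given in the closing section.

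Related families and regulators, in lists chosen with earlier results in view, are given for context with all genes tested beside them. At 4 h 20.1% of all genes were lower and 18.7% higher with 1 µg/ml LTA, and 21.3 and 20% with 10 µg/ml. Of 24 RNA decay factors, 3 fell and 15 rose with 1 µg/ml and 4 fell and 14 rose with 10 µg/ml (5 and 9, and 5 and 8, when scaled to library totals alone, which lowers the median of all genes to -0.32 and -0.36). BTG2, an antiproliferative protein that recruits deadenylase, rose by 2.76 ± 0.29, ZC3H12C by 2.34 ± 0.26 and the RNase regnase-1 (ZC3H12A) by 2.31 ± 0.22 with 1 µg/ml. Of 34 transcriptional repressors, 1 fell and 21 rose with 1 µg/ml and 1 fell and 20 rose with 10 µg/ml (4 and 18, and 6 and 16, when scaled to library totals alone), led by HEY1 at 4.31 ± 1.18, HES4 at 4.25 ± 0.80 and the stress factor ATF3 at 3.58 ± 0.30. The median fold change was 0.60 for the decay factors and 0.87 for the repressors with 1 µg/ml, against -0.040 for all genes tested.

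Of 12 SIGLEC genes, 5 fell and 1 rose at 4 h with 1 µg/ml and 6 fell and 1 rose with 10 µg/ml. These counts include SIGLEC6 and SIGLEC15, which fell at 4 h by the rule. At 24 h 1 fell and 7 rose with 1 µg/ml, against 7.26 and 13.9% of all genes tested. With 10 µg/ml 2 fell and 6 rose, against 19.0 and 23.6%. The fallen ones were SIGLEC6 and, with 10 µg/ml, SIGLEC15. SIGLEC12 stood at -1.5 ± 0.22 at 4 h with 1 µg/ml. Of 4 yippee-like genes 2 fell at 4 h at each dose and 0 rose (4 fell when scaled to library totals alone). They were YPEL4, by the rule, and YPEL1, at -1.67 ± 0.24 with 1 µg/ml. Of 5 SLC4 transporters 2 fell and 0 rose at 4 h at each dose (3 fell when scaled to library totals alone). They were SLC4A3, by the rule, and SLC4A8, at -0.97 ± 0.21 with 1 µg/ml. At 24 h with 10 µg/ml SLC4A8 was higher, at 2.15 ± 0.20, while SLC4A3 was lower, at -1.69 ± 0.44.

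Of 23 quiescence and FOXO genes 7 fell and 4 rose at 4 h with 1 µg/ml and 7 fell and 5 rose with 10 µg/ml. Scaled to library totals alone, the counts were 9 and 4, and 10 and 4. With 1 µg/ml PIK3IP1 was lower by the rule, at -2.86 ± 0.26, and DDIT4, a brake on mTORC1, was higher at 2.35 ± 0.24. Of 49 G protein-coupled receptors of leukocytes 15 fell and 18 rose with 1 µg/ml and 14 fell and 18 rose with 10 µg/ml, an order that turned round when scaled to library totals alone (19 and 16, and 21 and 15). With 1 µg/ml the adenosine receptor ADORA2A rose by 3.79 ± 0.31 and the prostaglandin receptor PTGER2 by 3.34 ± 0.26, against -3.20 ± 0.27 for CCR3. The 4 h falls counted here include CCR2 and CCR3, which fell by the rule. At 24 h 3 of the 49 receptors fell and 27 rose with 1 µg/ml, against 7.26 and 13.9% of all genes tested. With 10 µg/ml 6 fell and 30 rose, against 19.0 and 23.6%. Of 21 Notch pathway genes 5 fell and 7 rose at each dose at 4 h (8 and 6, and 7 and 5, when scaled to library totals alone). Of 6 globin and erythroid genes 3 fell and 2 rose at 4 h with 1 µg/ml and 2 fell and 2 rose with 10 µg/ml. HBB stood at -6.80 ± 0.35 with 1 µg/ml and at -0.59 ± 0.20 with 10 µg/ml at 4 h. At 24 h it stood at 6.90 ± 0.89 and 6.35 ± 0.98. HBB averaged 35.2 CPM in untreated dHL-60 at 4 h and 0 CPM at 24 h, and had 0 and 0.106 CPM in untreated uHL-60.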

How the data were processed

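RNA-seq was run on 16 libraries of HL-60 cells, 12 differentiated and 4 undifferentiated. The authors deposited whole-number counts per gene symbol in 1 table. Tools listed in the submitters' processing notes, with no role or order, are featureCounts 2.0.1, HISAT2 2.1.0, fastp 0.20.0, edgeR 3.36.0 and DESeq2 1.28.0, and the build is GRCh38. Per the labels' protocols the library kit is stranded, and the sources used here do not say whether counting used strand, so genes with overlaps on the other strand are called uncertain. The uHL-60 counts were read as standing in plain alphabetical order of symbol. They were moved to the order of the deposited symbols before use.

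The 12 dHL-60 libraries were fitted together in 6 groups with edgeR 4.0.16 in R 4.3.3 (TMM scaling, filterByExpr, quasi-likelihood F test), and adjusted p values are Benjamini-Hochberg values over all genes tested. The uHL-60 libraries were fitted alone with a term for time, and the cell states in a fit of all 16. DESeq2 1.42.0, other scalings, no low-count filter, each library left out and a replicate block were run as alternatives. The steps were tested on simulated counts. Replicates of 1 group differed by more than sampling noise (chi-square per degree of freedom at least 10.9) and were kept apart.

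Named genes were the 8 lowest at 4 h, the 5 with most RNA in untreated cells, 3 on each side of the limit, the 5 lowest and highest calls per 24 h dose and per cell state, every call between doses and in uHL-60, further examples by role, and at most 3 per list. The further examples by role were picked after their values were seen. The genes and lists were chosen with earlier results of these data known. Values of 1 gene of the 112 are not reported here by name, and it is kept in the counts.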

Additional observations from a re-analysis of the deposited data

Results flagged for a closer look

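The response to 1 µg/ml LTA at 24 h differed between dHL-60 and uHL-60 for 2 of the 112 genes, by a test of the difference itself in the edgeR fit of all 16 libraries. For CSF1R the log2 response in dHL-60 minus that in uHL-60 was 2.31 ± 0.49 (adjusted p = 0.0301), with 106 and 121 CPM with LTA and 26.5 and 25.4 CPM without in dHL-60, and 2.15 CPM with LTA and 2.39 CPM without in uHL-60. For ZNF74 it was -1.16 ± 0.26 (adjusted p = 0.0371), with 21.1 and 21.7 CPM with LTA and 50.8 and 50.4 CPM without in dHL-60, and 32 CPM with LTA and 33.2 CPM without in uHL-60. The uHL-60 side has 1 library per condition, and the test was added after the data were seen. CSF1R lost its call without either untreated dHL-60 library or without LTA replicate 1 (adjusted p = 0.0553 to 0.0659), and ZNF74 without any 1 of the 4 dHL-60 libraries (adjusted p = 0.0743 to 0.134).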

How the results depend on the processing

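Leaving out 1 library at a time, the genes lower with 1 µg/ml LTA at 24 h numbered 9 to 16 (23 with all libraries) and the higher 19 to 20 (22). With 10 µg/ml they numbered 29 to 33 (34) and 23 to 32 (36). Between 10 and 1 µg/ml the lower genes numbered 0 to 4 and the higher 0 to 3 when 1 library was left out, 8 and 3 scaled to library totals alone, 13 and 8 with no low-count filter, and the lower 7 in a fit of the 24 h libraries alone, against 4 and 5. Genes lower in dHL-60 than in uHL-60 numbered 2 without either untreated library and 1 with DESeq2, against 4. In uHL-60 the 1 higher gene became 0 over all 16 libraries and 0 with DESeq2. In the fit of 6 untreated libraries with time as a term CCR2 stood at 0.106 and ZNF74 at -0.124, against -1.17 and 0.49. The difference in response between cell states gave 0 lower and 0 to 1 higher genes when 1 library was left out. The causes were not tested.

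The rule itself gave 66 genes on TMM-scaled libraries, all among the 112, and 96 to 142 when 1 library was left out. Scaling moved the split of all genes: with 1 µg/ml at 24 h 862 were lower and 1651 higher, against 1179 and 1441 under upper-quartile scaling. With 10 µg/ml 2259 were lower and 2797 higher, against 3169 and 2154 under library totals, where 38 of the 112 genes were lower and 27 higher. Between doses 94 were lower and 359 higher, against 200 and 216 under library totals.

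Nothing in the labels says that a replicate number marks a shared culture or day. Same-numbered libraries' deviations correlated at -0.204 to 0.088 between the 24 h groups and at 0.133 to 0.383 between the 4 h groups, and over all 15 pairs of groups 5 were over 0.1, so the numbers were not taken as a pairing. The 4 h list counts were not run with the block. With the replicate block 26 genes were lower and 24 higher with 1 µg/ml, 35 and 37 with 10 µg/ml, 5 and 6 between doses, and 2 and 2 for the difference in response. Depth limits the lowest genes: 3 counts in the untreated uHL-60 library of 24 h are 0.160 CPM.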
